A study of Mus musculus with 16 samples.

Results

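Transcripts of 10 classic target genes of the glucocorticoid receptor were followed in the mouse stomach: Fkbp5, Tsc22d3, Zbtb16, Sgk1, Klf9, Ddit4, Pdk4, Cdkn1a, Mt1 and Mt2. They were chosen by symbol, as genes well known to be induced by glucocorticoids, from the 24964 gene symbols of the count table. The choice was made with earlier results of these data known. All 10 were among the 15385 genes with enough counts to be tested. The lowest count of any of them was 70, for Zbtb16 in 1 library.

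The mice were female and 8 weeks old, and the RNA was extracted from a 4 mm biopsy taken at the lesser curvature of the gastric corpus, the acid-secreting body of the stomach. Wild-type (WT) mice were C57BL/6, and the mutant mice were congenic C57BL/6 carrying TTPΔARE, an allele of the gene Zfp36 for tristetraprolin (TTP) that lacks the AU-rich element of its transcript. Each genotype was sampled in conditions A and S, which gave the groups WT-A, WT-S, TTP-A and TTP-S with 4 libraries each. Condition A is gastric inflammation brought on by adrenalectomy, that is, by taking out the adrenals, the glands that make corticosterone, the main glucocorticoid of the mouse. For S the label gives spasmolytic polypeptide-expressing metaplasia (SPEM), in which mucous cells take over injured corpus glands. Neither the meaning of the letter S nor any operation on S mice is stated, so S serves only as the name of a comparison group, and A against S may not isolate the loss of the adrenal glands. The labels do not say whether the allele was carried on 1 or both chromosomes.

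Glucocorticoids enter the cell and bind their receptor, encoded by Nr3c1, which is held in the cytoplasm by heat shock protein chaperones. The bound receptor moves to the nucleus and activates genes at glucocorticoid response elements, inverted repeats of a short hexamer. Among its targets are feedback inhibitors of the receptor and of inflammation (Fkbp5, Tsc22d3), transcription factors (Zbtb16, Klf9), kinases of ion transport and fuel use (Sgk1, Pdk4), brakes on growth and the cell cycle (Ddit4, Cdkn1a) and metal-binding proteins (Mt1, Mt2). Most of these genes also answer to other inputs, such as p53 for Cdkn1a, hypoxia and ATF4 for Ddit4, fatty acids for Pdk4, and zinc and inflammation for the metallothioneins.

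The libraries held 17453930 to 25849472 counts each. Markers of parietal, chief, mucous neck and surface mucous cells had counts in every library, and Gast, a marker of the antrum, was at or near 0. Levels are given as CPM, counts relative to the scaled total of the library. Zfp36, the gene that carries the allele, was at 62.0 ± 4.73 (WT-S) against 122 ± 6.11 CPM (TTP-S) in condition S, and at 72.0 ± 11.9 (WT-A) against 123 ± 9.54 CPM (TTP-A) in condition A (SD, n = 4), with no overlap between genotypes. Libraries WT-A 3 and WT-A 4 stood apart: their deviation from the gene medians followed the GC content of transcripts (Spearman rho 0.72 and 0.74 across 11493 genes, and between -0.30 and 0.16 in the other libraries). Results are therefore also given for the other 14 libraries, in which WT-A 1 and WT-A 2 alone stand for their group. With fewer libraries a call can be lost there although the difference is as large. The summed level of markers of forestomach squamous epithelium ranged from 1.61 to 997 CPM, with a median of 19 CPM in WT-S against 322 CPM in WT-A. Smooth muscle markers summed to 6580 to 7510 CPM in WT-S against 7820 to 9480 CPM in WT-A. The part of either tissue in the results was not tested.

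Promoter sequence was examined because the genes share a receptor that binds DNA. RefSeq start sites (GRCm38.p6) matched 9 of the 10 genes, with 17 windows of 250 bases before a start. The full palindrome, GNACA and TGTNC with 3 bases of any kind between them, was searched on both strands and was found in 2 windows, 1 of Sgk1 and 1 of Mt1, against 0.387% of the 32851 windows of all genes. The receptor hexamer AGAACA, with its reverse TGTTCT, was found in 4 of the 17 windows (23.5%), 3 of the 6 of Sgk1 and 1 of Tsc22d3, against 16.1% of all windows, and may overlap the palindrome. The core of the metal response element, TGCACNC or TGCGCNC on either strand, was found in 3 of the 17 windows (17.6%), a smaller share than the 21.4% of all windows: Ddit4 (1 match), Mt1 (1 match) and Mt2 (3 matches; 1.26% of all windows held 3 or more). These are matches of letters and not sites shown to be bound. The 3 windows below carry the matches, in capitals, for genes that moved in opposite directions in wild-type mice. In Sgk1 (chr10:21993640-21993889, plus strand, before 1 of its internal starts) the capitals mark 3 hexamers and the palindrome, whose bases lie 188 to 176 before the start. In Mt1 (chr8:94178839-94179081, plus strand, ending 7 bases before the RefSeq start) they mark the palindrome, 94 to 82 bases before the start, and 1 metal element core. In Mt2 (chr8:94172368-94172617, plus strand) they mark 3 metal element cores.
Sgk1: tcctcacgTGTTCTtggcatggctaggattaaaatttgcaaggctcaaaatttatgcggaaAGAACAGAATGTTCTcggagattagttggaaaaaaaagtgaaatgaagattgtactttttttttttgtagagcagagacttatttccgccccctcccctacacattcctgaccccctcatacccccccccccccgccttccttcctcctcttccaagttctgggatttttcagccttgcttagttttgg
Mt1: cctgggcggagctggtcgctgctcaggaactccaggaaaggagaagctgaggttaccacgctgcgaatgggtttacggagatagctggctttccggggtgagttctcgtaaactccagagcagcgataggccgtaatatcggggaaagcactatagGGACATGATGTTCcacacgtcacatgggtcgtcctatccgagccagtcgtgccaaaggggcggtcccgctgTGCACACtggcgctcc
Mt2: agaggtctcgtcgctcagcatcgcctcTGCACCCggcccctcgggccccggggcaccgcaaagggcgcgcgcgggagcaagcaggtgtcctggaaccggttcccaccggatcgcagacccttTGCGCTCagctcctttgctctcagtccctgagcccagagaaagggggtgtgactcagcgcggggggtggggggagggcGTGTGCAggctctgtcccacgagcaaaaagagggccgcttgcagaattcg

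Per kilobase of the longest annotated transcript, the metallothioneins were the most abundant of the 10 genes in WT-S, Mt1 at 199.6 ± 8.78 and Mt2 at 128 ± 12.6 CPM per kb (SD, n = 4). Sgk1 followed at 91.5 ± 22.4 CPM per kb, then Cdkn1a at 67.2 ± 5.98 and Tsc22d3 at 28.5 ± 1.15 CPM per kb. Fkbp5 (16.2 ± 3.72), Ddit4 (14.5 ± 1.75) and Klf9 (13.3 ± 1.5 CPM per kb) were closer together than their spread. Pdk4 lay lower at 6.73 ± 0.942 CPM per kb, and Zbtb16 was the lowest at 1.85 ± 0.528 CPM per kb.

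Whether these genes differed between A and S was asked first in each genotype. In both genotypes 6 of the 10 were lower in A: Fkbp5, Tsc22d3, Zbtb16, Sgk1, Klf9 and Pdk4. In WT mice all 6 passed the edgeR quasi-likelihood test at an adjusted p under 0.05, where 8.99% of all genes were called lower, and Mt1 and Mt2 were called higher, where 9.80% of all genes were. In TTPΔARE mice the same 6 were called lower, where 1.35% of all genes were, and none was called higher (1.55% of all genes), although Mt2 had an unadjusted p under 0.05 and was called by limma voom. The genes called lower in both genotypes were 0.5% of those tested. Since the 10 were chosen with earlier results of these data known, these shares describe them and are not an independent test. The median log2 difference of the 10 genes was -0.57 in WT, against 0.009 for all genes tested, and -0.89 in TTPΔARE, against -0.001. By edgeR Ddit4 and Cdkn1a were not called in either genotype; DESeq2, limma voom and upper quartile scaling called Cdkn1a higher in WT-A. The other tools called other shares of all genes. DESeq2 called 11% higher and 11.9% lower in WT, and 3.01% and 2.60% in TTPΔARE. For limma voom the shares were 10% and 9.50% in WT, and 7.81% and 7.44% in TTPΔARE.

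Markers of the gland cells moved between A and S as well. Surface mucous markers summed to 52700 to 60600 CPM in WT-S and 36400 to 51600 CPM for WT-A, and to 55800 to 60100 CPM in TTP-S and 29800 to 52900 CPM for TTP-A, without overlap in either genotype. Of all single genes, 8.48% in WT and 6.77% in TTPΔARE were lower in A without overlap. Of the 4 markers edgeR called 0 lower in WT-A (8.99% of all genes) and 1, Muc5ac, in TTP-A (1.35%). DESeq2 called 2 (11.9%) and 4 (2.60%), and limma voom 3 (9.50%) and 4 (7.44%). Pgc, the gene of pepsinogen C, made up 92.9 to 95.7% of the summed level of 6 chief cell markers in every library, so that the sum is close to the level of that 1 gene. The mean of Pgc was 115000 ± 30200 CPM for WT-S against 65200 ± 23900 CPM for WT-A, and 125000 ± 3900 CPM for TTP-S against 112000 ± 19700 CPM for TTP-A (SD, n = 4). The chief cell markers did not move together: in WT-A edgeR called Pgc, Gif and Chia1 lower and Pga5 higher (77.8 ± 13.1 to 132 ± 21.8 CPM), and in TTP-A it called none lower and Bhlha15 higher (40.3 ± 5.5 to 63.9 ± 9.28 CPM), with 3 of the 6 above 0 and a median log2 difference of 0.16. Of 8 parietal cell markers edgeR called 4 lower in WT-A (8.99% of all genes) and 0 in TTP-A (1.35%), where 3 had an unadjusted p under 0.05, as did 15.9% of all genes. DESeq2 called the same numbers (11.9% and 2.60% of all genes). Limma voom called 7 lower in WT-A (9.50%), and 3 lower (7.44%) and 1 higher (7.81%) in TTP-A. Of 8 markers of mucous neck cells and SPEM edgeR called 4 higher in WT-A (9.80% of all genes) and 3 in TTP-A (1.55%), and limma voom 5 in each (10% and 7.81%). In each genotype 7 of the 8 had a positive log2 difference. Tff2 had a lower mean in A (537 ± 101 to 515 ± 130 CPM in WT, 575 ± 39.4 to 500 ± 77.1 CPM in TTPΔARE). The median sum of the 8 was lower in S, the condition labelled SPEM. It was 3500 CPM in WT-S against 5300 CPM in WT-A, and 3120 CPM in TTP-S against 4410 CPM in TTP-A. The WT sums overlapped. The part of these cells in the levels of the 10 genes was not tested.

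**Figure D1:**
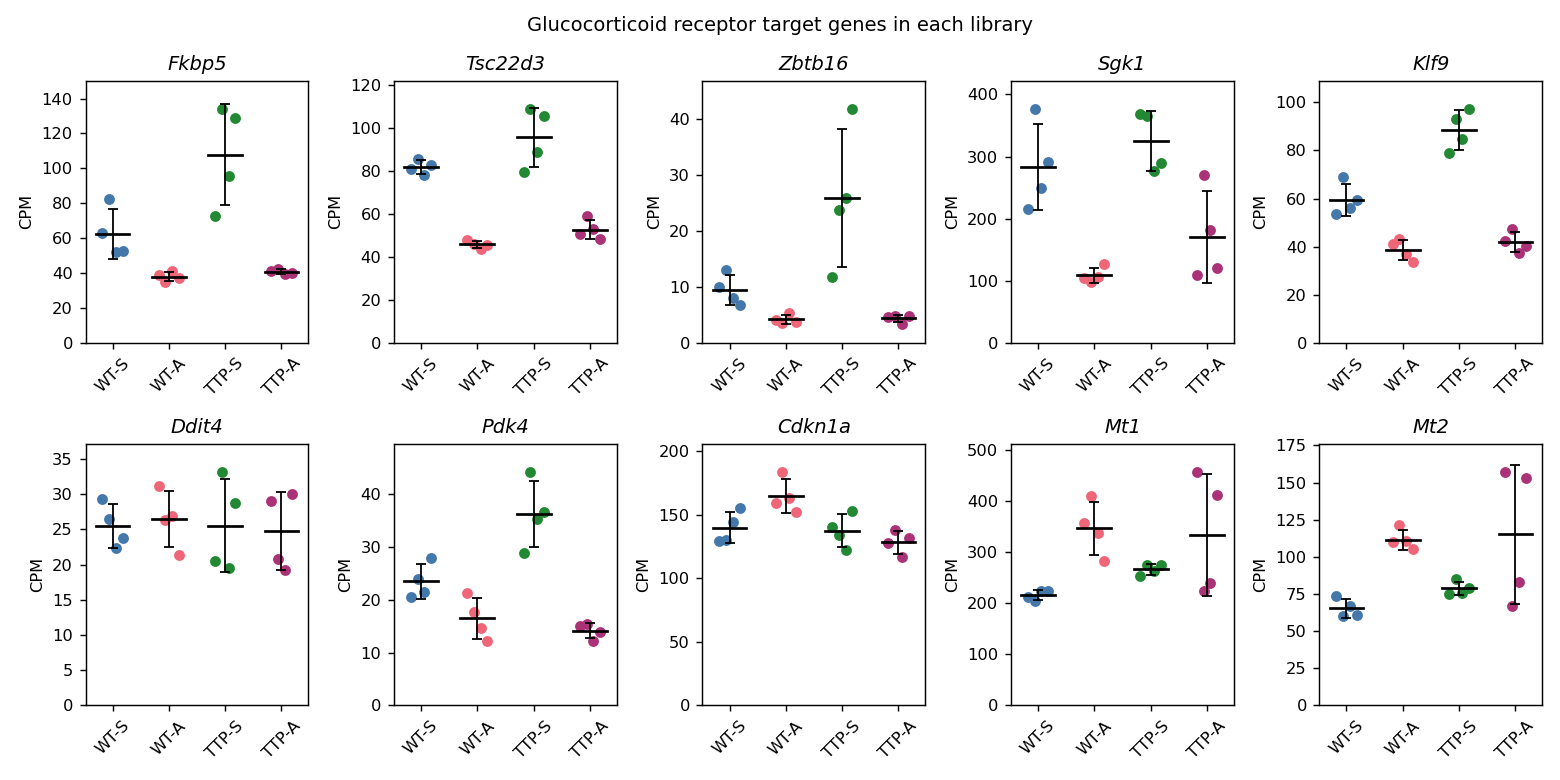
Level of each of the 10 genes in CPM (linear axes from 0) in every library, by group. Points are single libraries, thick lines are group means and error bars are ± 1 SD; in the panels of Fkbp5, Tsc22d3, Zbtb16, Sgk1 and Klf9 the points of A lie below those of S in both genotypes, whereas Ddit4 overlaps throughout.

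Fkbp5 (chr17:28399094-28517527, minus strand; gene positions are those of GENCODE on GRCm38) encodes a co-chaperone that lowers the affinity of the receptor for its ligand, a feedback loop that closes on the receptor itself. In wild-type mice Fkbp5 was at 63.0, 82.7, 51.8 and 52.8 CPM in WT-S libraries 1 to 4 and at 38.6, 34.9, 41.1 and 37.0 CPM in WT-A. In mutant mice Fkbp5 was at 73.0, 134, 95.4 and 129 CPM in TTP-S and at 41.2, 42.4, 39.4 and 39.8 CPM in TTP-A. No library of A reached the lowest library of S, and the spread of the gene was narrow in A (coefficients of variation of 6.91% and 3.37%) and wide in S (22.9% and 26.8%). The log2 difference was -0.72 (SE 0.17, adjusted p = 0.0105) in WT and -1.41 (SE 0.17, adjusted p = 0.000466) in TTPΔARE, a 1.65-fold and a 2.65-fold lower level. Without WT-A 3 and WT-A 4 the WT adjusted p was 0.0398. In a bulk biopsy such as this, fewer cells that express a gene and less RNA per cell cannot be told apart.

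Tsc22d3 (chrX:140539528-140600659, minus strand) encodes GILZ, a leucine zipper protein that carries part of the anti-inflammatory action of glucocorticoids. In wild-type mice Tsc22d3 was at 80.9, 85.9, 78.0 and 82.8 CPM in WT-S and at 48.1, 46.1, 43.6 and 45.6 CPM in WT-A. In mutant mice Tsc22d3 was at 79.4, 109, 89.2 and 106 CPM in TTP-S and at 50.5, 59.3, 52.9 and 48.6 CPM in TTP-A. No library of A came near the lowest library of S in either genotype, and by p the gene ranked 5 of all 15385 in WT and 3 in TTPΔARE. It fell by 0.84 on the log2 scale (SE 0.09, adjusted p = 0.000215) in WT and by 0.86 (SE 0.09, adjusted p = 0.000191) in TTPΔARE.

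Zbtb16 (chr9:48654297-48836222, minus strand) encodes PLZF, a zinc finger repressor that is among the most inducible glucocorticoid targets in many tissues. In wild-type mice Zbtb16 was at 9.91, 13.0, 8.05 and 6.81 CPM in WT-S and at 4.11, 3.48, 5.34 and 3.78 CPM in WT-A. In mutant mice Zbtb16 was at 11.7, 23.8, 25.9 and 41.7 CPM in TTP-S and at 4.63, 4.69, 3.36 and 4.77 CPM in TTP-A. All 8 libraries of A lay between 3.36 and 5.34 CPM, below every library of S, while TTP-S spread widely from library 1 to library 4. The log2 difference was -1.18 (SE 0.30, adjusted p = 0.0171) in WT and -2.56 (SE 0.31, adjusted p = 0.000466), a 5.89-fold lower level, in TTPΔARE, where only 1 gene of all tested had a more negative log2 difference. The WT call was lost in the 14 libraries (-1.32, adjusted p = 0.0507), by limma voom (0.113) and without WT-S 2 (0.0659).

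Klf9 (chr19:23141226-23168134, plus strand) encodes a Krüppel-like zinc finger factor that glucocorticoids induce in a direct and rapid way. In wild-type mice Klf9 was at 53.5, 68.9, 56.0 and 59.4 CPM in WT-S and at 40.9, 43.0, 36.9 and 33.4 CPM in WT-A. In mutant mice Klf9 was at 79.0, 93.1, 84.7 and 97.2 CPM in TTP-S and at 42.5, 47.3, 37.5 and 40.1 CPM in TTP-A. No group of A overlapped its S group. The gene fell by 0.62 on the log2 scale (SE 0.10, adjusted p = 0.00188) in WT and by 1.08 (SE 0.10, adjusted p = 8.16e-05) in TTPΔARE, where its p ranked 2 of all genes.

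Pdk4 (chr6:5483351-5496309, minus strand) encodes a kinase that shuts pyruvate dehydrogenase and so spares glucose when fat is burned. In wild-type mice Pdk4 was at 20.5, 23.9, 21.5 and 27.9 CPM in WT-S and at 21.2, 17.7, 14.7 and 12.2 CPM in WT-A. In mutant mice Pdk4 was at 28.8, 44.1, 35.2 and 36.5 CPM in TTP-S and at 15.0, 15.3, 12.2 and 13.8 CPM in TTP-A. The WT groups overlapped, since WT-A 1 lay above WT-S 1, and the lowest WT-A values were those of libraries 3 and 4. The WT log2 difference was -0.51 (SE 0.16, adjusted p = 0.0357), and in the 14 libraries it was -0.27 and not called (adjusted p = 0.279). This call was also lost by limma voom (-0.39, 0.0831), with only the WT groups in the fit (-0.51, 0.113) and without any 1 of WT-S 2, WT-S 3, WT-S 4, WT-A 3 or WT-A 4. The Pdk4 transcript had the lowest GC content of the 10, 44.9% against a median of 50% over the genes tested, and with offsets for GC content the WT difference was -0.38 (adjusted p = 0.0621). In TTPΔARE the groups did not overlap and Pdk4 fell by 1.36 on the log2 scale (SE 0.16, adjusted p = 0.000435).

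Of 6 markers of adipocytes, cells in which glucocorticoids act strongly, edgeR called 2 (Cfd and Fabp4) lower in TTP-A, where 1.35% of all genes were, and DESeq2 and limma voom called 3 each (2.60% and 7.44%). Of the other 4 markers Lep had a positive log2 difference (0.32, adjusted p = 0.763) and the rest a negative one. The sum of the 6, to which Fabp4 and Cfd contributed most, was 218, 264, 260 and 348 CPM in TTP-S and 183, 171, 124 and 147 CPM in TTP-A. The lowest TTP-S library was 1, as for Fkbp5, Tsc22d3, Zbtb16, Klf9, Pdk4, Mt1 and Mt2, and the highest was 4, as for Zbtb16, Klf9 and Cdkn1a. In WT the sums overlapped, at 161 to 215 CPM in WT-S against 148 to 270 CPM in WT-A, and edgeR and limma voom called 0 of the 6, with 1 at an unadjusted p under 0.05, as were 36.5% of all genes. DESeq2 called 1 higher in WT-A (11%). The part of adipose tissue in the levels of these genes was not tested.

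Sgk1 (chr10:21882184-21999903, plus strand) encodes a kinase that promotes sodium channel and transporter activity and responds to both glucocorticoids and mineralocorticoids, which the adrenal glands also make. In wild-type mice Sgk1 was at 216, 376, 250 and 291 CPM in WT-S and at 104, 97.3, 106 and 126 CPM in WT-A. In mutant mice Sgk1 was at 368, 365, 277 and 289 CPM in TTP-S and at 109, 271, 182 and 120 CPM in TTP-A. The WT groups lay far apart, whereas TTP-A 2 came close to TTP-S 3 without overlapping it. Sgk1 fell by 1.38 on the log2 scale (SE 0.24, adjusted p = 0.00272), a 2.61-fold lower level, in WT and by 0.93 (SE 0.24, adjusted p = 0.0481) in TTPΔARE. The TTPΔARE call was lost when any 1 of 7 of its 8 libraries was left out, with adjusted p values up to 0.169 without TTP-A 1, while the log2 difference in those 7 fits stayed between -0.998 and -0.765; leaving out TTP-A 2 kept the call.

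Ddit4 (chr10:59949669-59951834, minus strand) encodes REDD1, an inhibitor of mTORC1 signalling. In wild-type mice Ddit4 was at 29.3, 26.5, 22.3 and 23.8 CPM in WT-S and at 31.2, 26.3, 26.9 and 21.4 CPM in WT-A. In mutant mice Ddit4 was at 20.5, 33.2, 19.5 and 28.8 CPM in TTP-S and at 29.0, 20.9, 19.3 and 30.1 CPM in TTP-A. The 4 groups overlapped throughout. The log2 difference was 0.06 in WT, with a 95% interval of -0.32 to 0.44, and -0.04 in TTPΔARE, with an interval of -0.42 to 0.34, so that a fall as large as that of Fkbp5 or Tsc22d3 lay outside both intervals.

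Cdkn1a (chr17:29090976-29100727, plus strand) encodes p21, an inhibitor of cyclin-dependent kinases. In wild-type mice Cdkn1a was at 129, 130, 144 and 155 CPM in WT-S and at 159, 184, 163 and 152 CPM in WT-A. In mutant mice Cdkn1a was at 140, 134, 122 and 153 CPM in TTP-S and at 128, 138, 116 and 131 CPM in TTP-A. WT-A libraries 1 to 3 lay above all of WT-S, and the TTPΔARE groups overlapped. The log2 difference was 0.24 in WT (SE 0.08, adjusted p = 0.0556), which DESeq2 (0.0426) and limma voom (0.0271) called, and -0.10 in TTPΔARE (SE 0.08, adjusted p = 0.65). Exons of Cdkn1a overlap those of a gene on the other strand, and since the strandedness of the counting was not stated, reads of the 2 genes cannot be told apart.

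Mt1 (chr8:94179082-94180327, plus strand) and Mt2 (chr8:94172664-94173568, plus strand) encode metallothioneins, small cysteine-rich proteins that bind zinc and copper. In wild-type mice Mt1 was at 213, 205, 224 and 225 CPM in WT-S and at 357, 409, 338 and 282 CPM in WT-A. In wild-type mice Mt2 was at 73.9, 60.3, 67.2 and 60.7 CPM in WT-S and at 110, 121, 110 and 105 CPM in WT-A. Every WT-A library lay above every WT-S library for both genes, the direction opposite to that of the other called genes. Mt1 rose by 0.68 on the log2 scale (SE 0.18, adjusted p = 0.0200) and Mt2 by 0.77 (SE 0.20, adjusted p = 0.0180), and without WT-S 2 neither was called (adjusted p = 0.0594 and 0.0575), nor was Mt2 without WT-S 4 (0.0508).

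In mutant mice Mt1 was at 254, 274, 263 and 274 CPM in TTP-S and at 457, 224, 240 and 413 CPM in TTP-A. In mutant mice Mt2 was at 75.3, 85.1, 75.9 and 78.7 CPM in TTP-S and at 157, 67.2, 83.1 and 153 CPM in TTP-A. TTP-S was tight, while TTP-A held 2 high libraries, 1 and 4, and 2 libraries, 2 and 3, within or below the range of TTP-S. The log2 difference was 0.33 for Mt1 (SE 0.18, adjusted p = 0.421) and 0.55 for Mt2 (SE 0.20, adjusted p = 0.165), and limma voom called Mt2 (0.0219). Both values moved when single libraries were left out: without TTP-A 1 they were 0.14 and 0.36, without TTP-A 4 they were 0.21 and 0.38, and without TTP-A 2 Mt2 was 0.735 and called (adjusted p = 0.0139). Mt2 gave 0.270 to 0.374 counts per Mt1 count in all 16 libraries. The longest run of bases that their transcripts share is 20, and Mt2 exons overlap a gene on the other strand.

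The libraries of TTP-A that were high in Mt1 and Mt2 were low in Sgk1. Libraries 1 and 4, with Mt2 at 157 and 153 CPM, had Sgk1 at 109 and 120 CPM, and libraries 2 and 3, with Mt2 at 67.2 and 83.1 CPM, had Sgk1 at 271 and 182 CPM. Markers of mucous neck cells and SPEM summed to 6740, 3580, 3760 and 5070 CPM in TTP-A libraries 1 to 4, and those of surface mucous cells to 29800, 52900, 40600 and 35200 CPM. Parietal cell markers summed to 19700, 22600, 22600 and 20600 CPM. The mucous neck sums were thus higher, and the surface mucous and parietal sums lower, in libraries 1 and 4. Clu made up 38.2 to 58.5% of the mucous neck sum in TTP-A, and Muc6 ranged from 617 to 3280 CPM there. Of the chief cell markers Pgc (89100, 115000, 137000 and 106000 CPM) and Gif (2480, 3300, 3550 and 2730 CPM) were lower in libraries 1 and 4, Gkn3 was higher there (166, 73.8, 57.1 and 100 CPM), and Chia1, Bhlha15 and Pga5 were highest in library 3 and lowest in library 2. Their part in the levels of Sgk1, Mt1 and Mt2 was not tested.

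**Figure D2:**
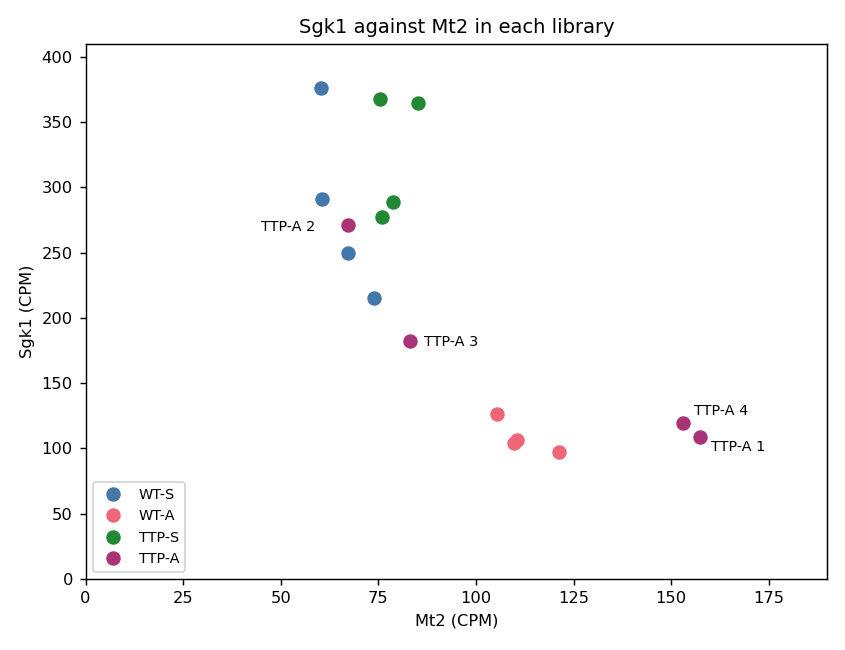
Sgk1 (vertical axis, CPM) against Mt2 (horizontal axis, CPM) in the 16 libraries, 1 point each, coloured by group, with the 4 TTP-A libraries named. TTP-A 1 and TTP-A 4 lie at high Mt2 and low Sgk1, and TTP-A 2 and TTP-A 3 lie at 67.2 and 83.1 CPM of Mt2 with more Sgk1.

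Beside the calls stood the separation of the groups. In WT 5 of the 10 genes were lower in A with no overlap, where 8.48% of all genes were, and 2 were higher with no overlap, where 9.20% of all genes were. In TTPΔARE 6 were lower with no overlap, against 6.77% of all genes, and none was higher, against 6.94%. In the 14 libraries 4 of the 10 were called lower (5.75% of all genes) and 2 higher (4.64%) in WT, and 6 were called lower (3.10%) in TTPΔARE. Of single libraries WT-S 2 mattered most for the WT count: without it 4 of the 10 genes were called, Fkbp5, Tsc22d3, Sgk1 and Klf9.

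**Figure D3:**
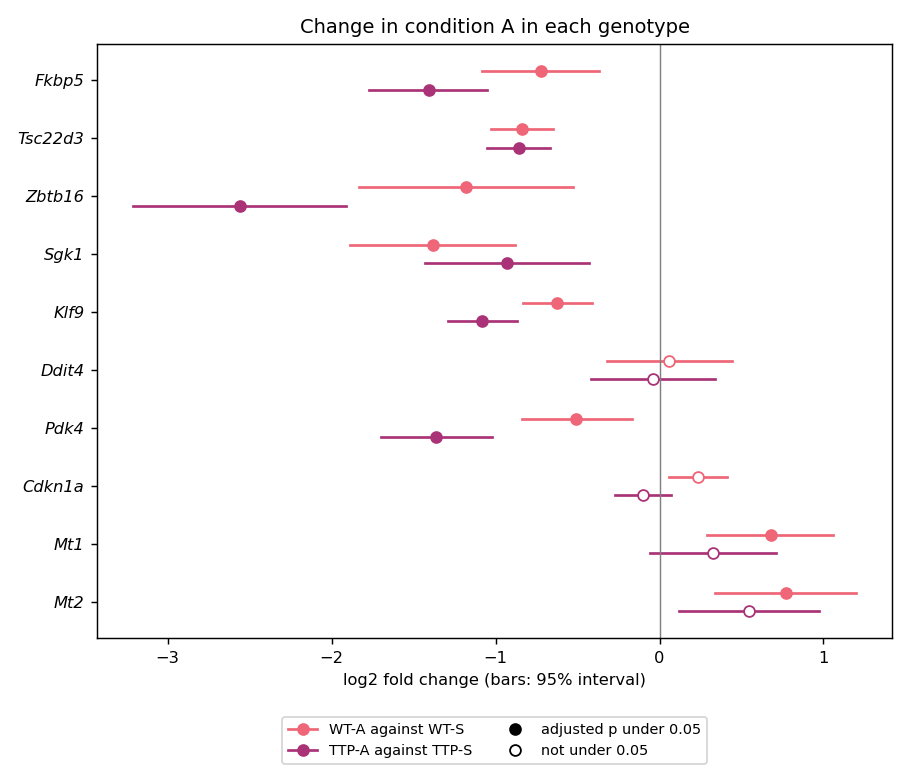
Log2 difference of A from S for the 10 genes in WT and in TTPΔARE mice, with 95% intervals from edgeR (4 libraries per group) and filled points for an adjusted p under 0.05. Fkbp5, Tsc22d3, Zbtb16, Sgk1, Klf9 and Pdk4 lie below 0 in both genotypes, Ddit4 spans 0, and Mt1 and Mt2 lie above 0 in WT.

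Whether the response to A differed between genotypes was tested with an interaction term. For 9 of the 10 genes the TTPΔARE difference was the lower, and Sgk1 was the exception. The interaction was -0.68 for Fkbp5 (SE 0.24, adjusted p = 0.221), -1.38 for Zbtb16 (SE 0.43, adjusted p = 0.179), -0.46 for Klf9 (SE 0.14, adjusted p = 0.178) and -0.85 for Pdk4 (SE 0.22, adjusted p = 0.133). For Tsc22d3 it was -0.02, with a 95% interval of -0.29 to 0.24. By edgeR 0 of the 10 passed, where 0.0585% of all genes did, and 5 had an unadjusted p under 0.05, as did 15.2% of all genes. DESeq2 called 2 (Pdk4 and Zbtb16; 1.81% of all genes), limma voom 2 (Klf9 and Pdk4; 1.11%) and the 14 libraries 1 (Pdk4, -1.09, adjusted p = 0.0317; 0.295% of all genes).

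The genotypes were then compared within S, whose label names no adrenalectomy. The log2 difference was positive for 9 of the 10 genes, though that of Ddit4 rounded to 0.00 and changed sign under 3 other settings, and negative for Cdkn1a (-0.02), with a median log2 difference of 0.28 against -0.001 for all genes. Klf9 was at 88.5 ± 8.18 CPM in TTP-S and 59.5 ± 6.74 CPM in WT-S (0.57, SE 0.10, adjusted p = 0.0544), and Pdk4 at 36.2 ± 6.28 and 23.5 ± 3.28 CPM (0.63, SE 0.16, adjusted p = 0.204). Neither gene overlapped between the genotypes. Fkbp5 (108 ± 28.9 and 62.6 ± 14.3 CPM, 0.78, SE 0.17, adjusted p = 0.121) and Zbtb16 (25.8 ± 12.3 and 9.45 ± 2.7 CPM, 1.44, SE 0.29, adjusted p = 0.101) differed more in their means but overlapped.

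By edgeR 0 of the 10 genes passed in this comparison, where 0.0325% of all genes did, and 5 had an unadjusted p under 0.05 (Fkbp5, Tsc22d3, Zbtb16, Klf9 and Pdk4), as did 7.49% of all genes. DESeq2 and limma voom each called 4, namely Fkbp5, Zbtb16, Klf9 and Pdk4, where they called 0.663% and 1.14% of all genes. In the 14 libraries Klf9 (adjusted p = 0.0123) and Pdk4 (0.0478) were called, where 0.365% of all genes were. Groups did not overlap, with TTP-S the higher, for Klf9, Pdk4, Mt1 and Mt2, against 3.50% of all genes. The 6 adipocyte markers all had a positive log2 difference here, at sums of 218 to 348 CPM against 161 to 215 CPM. Fabp4 made up 47.7 to 58.9% of the sum in these libraries. Of the 6, edgeR called 0 (0.0325% of all genes), and DESeq2 (0.663%) and limma voom (1.14%) called 1 each, Fabp4. The part of adipose tissue was not tested.

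Within A 1 of the 10 genes was called between the genotypes by edgeR, and 3 had an unadjusted p under 0.05, as did 27.5% of all genes. Not being called does not show that levels were alike. The 95% interval of Zbtb16 ran from -0.61 to 0.74. The log2 differences of Mt1 (-0.05) and Mt2 (0.04) were small, but single TTP-A libraries lay below or above all of WT-A. Fkbp5 was at 40.7 ± 1.37 CPM in TTP-A and 37.9 ± 2.62 CPM in WT-A, a log2 difference of 0.10 with a 95% interval of -0.26 to 0.46. Cdkn1a was the 1 gene called, lower in TTP-A (128 ± 8.94 CPM) than in WT-A (164 ± 13.6 CPM), with a log2 difference of -0.36 (SE 0.08, adjusted p = 0.0279), where 2.30% of all genes were called lower. Its groups did not overlap, as for 6.22% of all genes on the lower side. The call was kept in the 14 libraries (-0.42, adjusted p = 0.0415; 0.539% of all genes called lower) and lost with only the 2 groups in the fit (0.0977), with offsets for GC content (0.0870) and without any 1 of WT-A 3, TTP-A 1, TTP-A 3 or TTP-A 4. Every TTP-A library lay above every WT-A library for Tsc22d3, as for 5.99% of all genes, and its log2 difference of 0.20 was not called (SE 0.09, adjusted p = 0.155). The Sgk1 difference was 0.65 (SE 0.24, adjusted p = 0.102), and 0.33 without TTP-A 2. Cell markers also differed between these groups: smooth muscle markers summed to 6290 to 7530 CPM in TTP-A and 7820 to 9480 CPM in WT-A, and edgeR called 4 of the 6 lower in TTP-A (2.30% of all genes), DESeq2 5 (5.38%), limma voom 0 (2.28%) and the 14 libraries 0 (0.539%). Of 6 chief cell markers edgeR called 2 higher in TTP-A, Bhlha15 and Chia1 (2.87% of all genes), and 3 in the 14 libraries (1.33%). Of 8 parietal markers 1 was called higher, Kcne2, and 2 in the 14 libraries. Of 8 markers of mucous neck cells and SPEM 1 was called lower, Gpx2, and 0 in the 14 libraries. The part of these cells in the value of Cdkn1a was not tested.

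**Figure D4:**
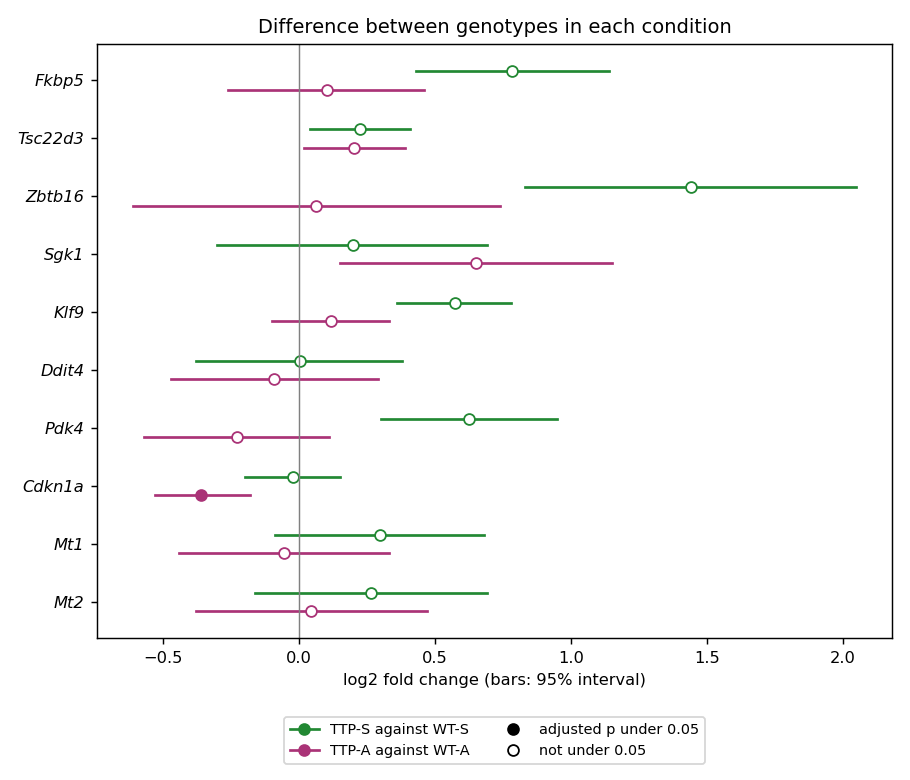
Log2 difference of TTPΔARE from WT for the 10 genes in condition S and in condition A, with 95% intervals from edgeR (4 libraries per group). Filled points passed at an adjusted p under 0.05. In S the intervals of Fkbp5, Tsc22d3, Zbtb16, Klf9 and Pdk4 lie above 0, although none passed after adjustment, and in A Cdkn1a is the 1 filled point, below 0.

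The genes most alike in pattern were found by Pearson r of log2 CPM over the 16 libraries, a description that includes the differences between groups and the depth shared by genes of a library. For Fkbp5 they were Zbtb16 (0.976), Adamtsl2 (0.953), Klf9 (0.952) and Fam107a (0.948). For Tsc22d3 they were Fam107a (0.967), Per1 (0.964), Fmo2 (0.963) and Pim3 (0.955). Cdkn1a was most like Gsto2 (0.930), Sdc1 (0.887), Fbf1 (0.837) and Cebpb (0.835). Mt1 was most like Mt2 (0.955), then Mmp12 (0.884), Itga2 (0.878) and Smo (0.855).

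A further 24 genes known to be induced by glucocorticoids, also chosen with earlier results of these data known, were all tested. In WT 3 were called lower and 4 higher, where 8.99% and 9.80% of all genes were, with a median log2 difference of 0.04 against 0.009. The 14 libraries called 4 lower and 3 higher (5.75% and 4.64% of all genes), Tgm2 being lost, and there the median was -0.09. Per1, a clock gene with a glucocorticoid response element, fell from 96.1 ± 13.8 to 29.9 ± 4 CPM (-1.69, adjusted p = 6.05e-06), and Fam107a (-1.40, 0.00294) and Lpin1 (-0.43, 0.0266) also fell. Those that rose were Anxa1 (0.60, adjusted p = 0.0126), an anti-inflammatory phospholipid-binding protein, Cebpb (0.48, 0.00815), Gadd45a (0.70, 0.0150) and Tgm2 (0.27, 0.0363). In TTPΔARE 6 were called lower and none higher by edgeR, DESeq2 or limma voom, where edgeR called 1.35% of all genes lower, with a median of -0.24 against -0.001. They were Per1 (108 ± 18 to 36.1 ± 1.31 CPM, -1.58, adjusted p = 1.51e-05), Fam107a (-2.09, 0.000435), Hif3a (-2.02, 0.00197), Cd163 (-1.19, 0.0154), a receptor of macrophages, Map3k6 (-0.82, 0.00931) and Cebpd (-0.80, 0.0179). Of the 24, DESeq2 called 10 lower (2.60% of all genes), limma voom 12 (7.44%) and the 14 libraries 11 (3.10%).

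**Figure D5:**
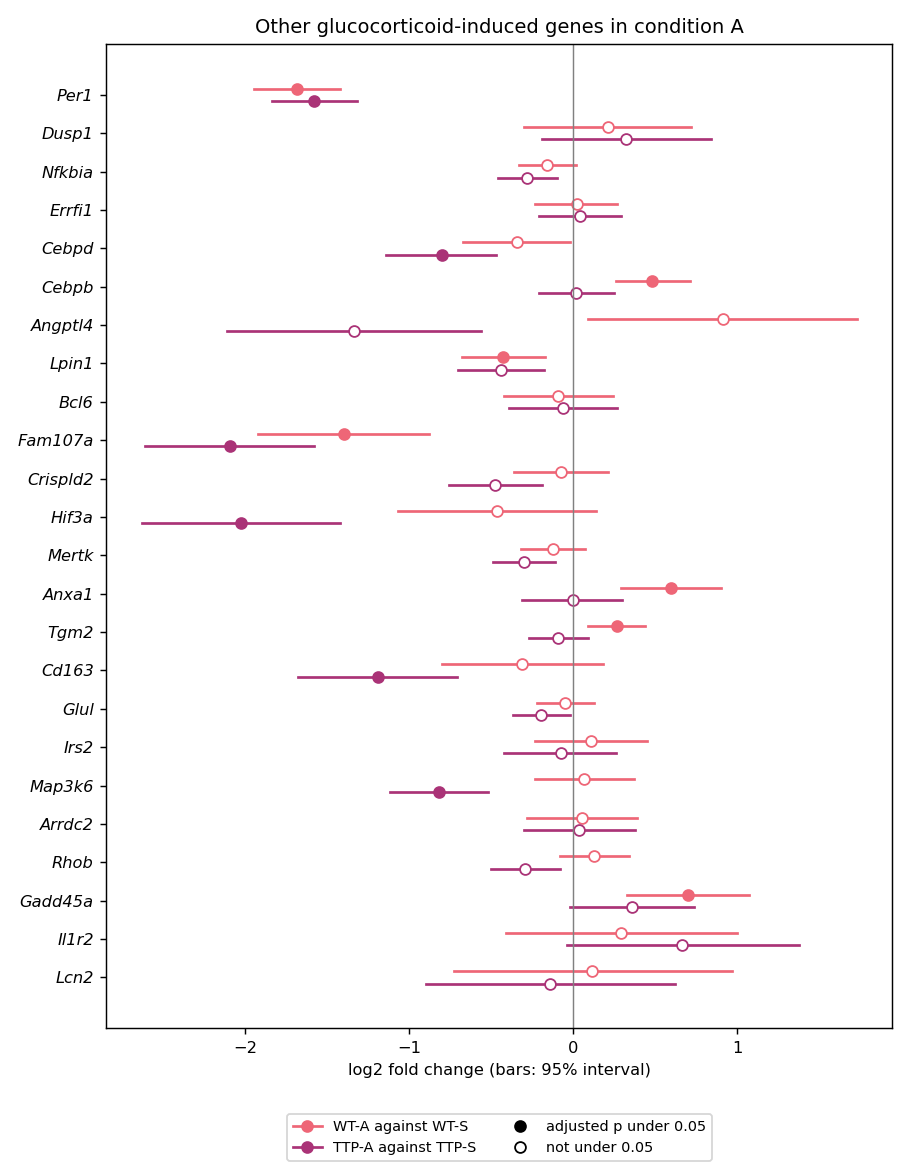
Log2 difference of A from S in WT and TTPΔARE mice for the 24 further glucocorticoid-induced genes, with 95% intervals from edgeR (4 libraries per group) and filled points for an adjusted p under 0.05. Per1 and Fam107a lie below 0 in both genotypes, and Anxa1, Cebpb, Gadd45a and Tgm2 lie above 0 in WT.

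The receptor itself and 11 genes of its chaperones, cofactors and steroid metabolism were examined with the targets. In WT Hsd11b2, whose enzyme inactivates corticosterone, rose from 2 ± 0.333 to 4.11 ± 0.569 CPM (1.05, adjusted p = 0.00130). Nr3c1, the receptor gene, fell (76.9 ± 4.02 to 60.9 ± 10.8 CPM, -0.34, adjusted p = 0.0286), as did Nr3c2, the mineralocorticoid receptor (-0.40, 0.0398), and the chaperone Hsp90aa1 (-0.41, 0.0387), but none of these 3 was called in the 14 libraries. These were 1 higher and 3 lower of 12, where 9.80% and 8.99% of all genes were. In TTPΔARE 0 of the 12 passed by edgeR or DESeq2 and limma voom called 1 lower (7.44% of all genes). There 1 of the 12 had an unadjusted p under 0.05, a smaller share than the 15.9% of all genes, and Nr3c1 was at 79.3 ± 5.18 CPM in TTP-S against 80.0 ± 4.77 CPM in TTP-A.

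Of 12 inflammatory genes that glucocorticoids repress, 10 were tested, and none was called lower in A by edgeR, DESeq2 or limma voom. Ccl2, a monocyte chemokine, rose in WT (0.96, adjusted p = 0.0224) and in TTPΔARE (1.36, 0.0246). Its counts per library were low, at 15 to 29 in WT-S, 37 to 58 in WT-A, 9 to 12 in TTP-S and 19 to 34 in TTP-A. Icam1 (0.51, 0.0114) rose in WT and Nos2 (1.48, 0.0245) in TTPΔARE. Nos2 too had few counts, 13 to 17 per TTP-S library and 28 to 49 per TTP-A library. Tnf was also called higher in WT (adjusted p = 0.00337), but on 2 to 3 counts per WT-S library and 11 to 24 per WT-A library, so no fold is given. These were 3 of 10 in WT, where 9.80% of all genes were called higher, and 2 of 10 in TTPΔARE, where 1.55% were. The median log2 difference of the 10 was 0.52 in WT, against 0.009 for all genes, and 0.65 in TTPΔARE, against -0.001. In the 14 libraries only Tnf of the 3 was called in WT (4.64% of all genes called higher), and 3 of the 10 were called higher in TTPΔARE (3.17%). In TTPΔARE DESeq2 called 2 higher (3.01%) and limma voom 5 (Ccl2, Icam1, Il1b, Nos2 and Tnf; 7.81%). Macrophage markers summed to 94.3 to 123 CPM (median 113) in WT-S and 115 to 177 CPM (median 143) for WT-A, and to 85 to 117 CPM (median 111) in TTP-S and 114 to 137 CPM (median 134) for TTP-A. Of the 6 markers Cd68 and Csf1r were called higher in WT-A (9.80% of all genes; 1 of 6 in the 14 libraries, 4.64%), and in TTPΔARE all 6 had a positive log2 difference (median 0.30) with 0 called by edgeR or DESeq2, 1 by limma voom (7.81%) and 2 at an unadjusted p under 0.05 (15.9%). The part of macrophages in the inflammatory genes was not tested.

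The other inputs of the genes that stood apart were read from 5 lists, beside shares over all genes of 9.80% called higher and 8.99% called lower in WT, and 1.55% and 1.35% in TTPΔARE. Of 10 p53 targets, an input of Cdkn1a, 3 were called higher (Bax, Bbc3 and Phlda3) and 3 lower (Ccng1, Mdm2 and Trp53inp1) in WT, but the 14 libraries called only Ccng1 of these 6 (-0.34, adjusted p = 0.0132). Plk2 rose in TTPΔARE (0.53, 0.0185). Of 8 targets of ATF4, an input of Ddit4, Nupr1 rose in both genotypes (1.07 and 1.17). Atf3 was also called higher in both and Psat1 in WT, and Asns fell in WT (-0.47). The WT calls of Atf3 (14 libraries, adjusted p = 0.0514) and Psat1 (0.120) were lost without WT-A 3 and WT-A 4.

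Of 8 hypoxia targets, Egln3 rose in both genotypes (0.63 and 1.06) and Ankrd37 in WT (0.78), and these calls were kept in the 14 libraries. Of 9 genes of fatty acid use, which share an input with Pdk4, Acadm fell in WT (-0.29, adjusted p = 0.0179), and Plin2 was called higher (0.30, 0.0469) but not in the 14 libraries (0.211). In TTPΔARE all 9 had a negative log2 difference (median -0.22), of which edgeR called 0. At an unadjusted p under 0.05 there were 6, where 15.9% of all genes were, and DESeq2 called 4 lower (2.60% of all genes), limma voom 6 (7.44%) and the 14 libraries 3 (3.10%). Of 9 genes of the metal and oxidative response, 8 were tested. Hmox1 was called higher in WT (0.68, adjusted p = 0.0480) but not in the 14 libraries (0.68, 0.133). Mt1 and Mt2 kept their calls there, at adjusted p values of 0.0251 and 0.0497, that of Mt2 just under the threshold. In TTPΔARE 0 passed by edgeR, DESeq2 or limma voom, with 0 at an unadjusted p under 0.05.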

How the data were processed

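RNA was measured by sequencing in 16 libraries, grouped by their titles. The values are raw read counts by gene symbol in 1 table that the authors deposited for all libraries. STAR 2.7.0f, featureCounts of Subread 1.6.4, DESeq2 and the build mm10 are named per the submitters' processing notes, without settings; the strandedness and annotation are not given in the sources used here. Counts carry no molecular identifiers. Whether libraries of a group came from separate mice is not stated, so p-values measure the spread between these libraries.

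The counts went unchanged into edgeR 4.0.16 (R 4.3.3): filterByExpr, TMM scaling, 1 quasi-likelihood fit of 4 group means over the 16 libraries, and Benjamini-Hochberg adjustment over 15385 genes. A gene is called at an adjusted p under 0.05. CPM uses TMM-scaled totals; log2 CPM for likeness used a prior count of 2. The procedure was tested on simulated data. Alternatives were DESeq2 1.42.0 (size factors, Wald test), upper quartile scaling, other filters, limma 3.58.1 voom with sample weights, only the groups compared, a replicate block, GC offsets (loess span 0.5), 14 libraries, and leaving out each library.

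The 10 genes and the lists were chosen with earlier results of these data known. Named genes were the 10, the called genes of each list (at most 6 by adjusted p), Per1, Zfp36, and the 4 genes most like each of Fkbp5, Tsc22d3, Cdkn1a and Mt1. Cell markers named outside this rule, such as Lep, Gast and those of chief cells, were picked after their values were seen. Genes, transcript lengths and GC content were matched by symbol to the GENCODE annotation of GRCm38. Libraries of a group differed by more than counting noise (chi-square per degree of freedom 4.69 to 89.5 over 24 pairs).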

Additional observations from a re-analysis of the deposited data

Results flagged for a closer look

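Of 40 sets of 4 libraries (10 genes in 4 groups), 1 held a library far from the others by Dixon's criterion. Zbtb16 in TTP-A 3 was at 3.36 CPM, below 4.63 to 4.77 CPM in the other 3 libraries of its group. Chance alone marks about 1 in 20 such sets.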

How the results depend on the processing

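Of 490 values of the 10 genes under the other settings, 447 kept their direction and side of the threshold, 8 lost the call, 24 gained it and 11 turned sign; of 480 with 1 library left out, 427 kept both, 20 lost the call, 9 gained it and 24 turned sign. Neither other scaling turned the sign of any of the 10, but upper quartile scaling moved the share of called genes that were higher in A from 52.2% to 66.4% in WT, and of those higher in TTP-A than in WT-A from 55.5% to 38.7%. Replicate numbers did not pair the libraries (correlations of -0.42 to 0.33 over 16 same-numbered pairs, 4 over 0.1).

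In WT-A against WT-S, 2891 genes were called, 675 with only the groups compared, 1620 in the 14 libraries and 1254 to 4977 (without WT-S 2 and WT-A 1) leaving out a library, when 4 to 9 of the 10 genes were called. In TTP-A against TTP-S, 446 genes were called, 863 by DESeq2, 2346 by limma voom, 1195 with only the groups compared, 977 in the 14 libraries, 750 with GC offsets and 60 to 937 (without TTP-A 1 and TTP-A 2) leaving out a library. In TTP-S against WT-S, 5 genes were called, 2 with upper quartile scaling, 100 by DESeq2, 175 by limma voom, 60 with only the groups compared, 57 in the 14 libraries, 33 with GC offsets and 1 to 15 leaving out a library. Of the 10 genes there, DESeq2 and limma voom called 4 each, only the groups compared, the 14 libraries and GC offsets 2 each, the replicate block 1, and leaving out a library 0 to 3. In TTP-A against WT-A, 796 genes were called, 1636 by DESeq2, 1 with only the groups compared, 292 in the 14 libraries and 86 to 3202 (without WT-A 3 and WT-A 1) leaving out a library. Of the 10 genes there, 0 were called with only the groups compared and with GC offsets, and 0 to 1 leaving out a library. For the interaction, 9 genes were called, 262 by DESeq2, 171 by limma voom, 4 with the replicate block, 46 in the 14 libraries, 23 with GC offsets and 2 to 211 leaving out a library. Of the 10 genes the interaction called 2 by DESeq2, 2 by limma voom and 1 in the 14 libraries. The replicate block changed no other call of the 10 genes.

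The log2 differences that turned sign were small. For Ddit4 they were -0.078 in WT with GC offsets, 0.069 in TTPΔARE by limma voom, -0.000009 (DESeq2), -0.0028 (replicate block) and -0.0040 (GC offsets) between genotypes in S, 0.0056 in A and 0.0095 for the interaction, the last pair with GC offsets. Between genotypes in A, Klf9 was -0.013 by limma voom and -0.0047 in the 14 libraries, Mt1 0.0073 with GC offsets and Mt2 -0.0030 in the 14 libraries. Leaving out a library, Ddit4 ranged from -0.032 to 0.14 in WT, -0.15 to 0.12 in TTPΔARE, -0.15 to 0.11 between genotypes in S, -0.20 to 0.0098 in A and -0.21 to 0.057 for the interaction. Cdkn1a ranged from -0.079 to 0.032 between genotypes in S. Between genotypes in A, Zbtb16 ranged from -0.018 to 0.20, Mt1 from -0.25 to 0.092 and Mt2 from -0.14 to 0.23. The interaction of Tsc22d3 ranged from -0.11 to 0.044. The cause of these changes was not tested. The lowest count of any of the 10 genes in a library was 70, so none of their values rests on a handful of reads.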
